A study of Mus musculus with 2 samples.

Results

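The 9 genes described here encode transcription factors that newborn neurons of the embryonic brain switch on as they leave the cell cycle or soon after, namely *Isl1*, *Lhx1*, *Lhx5*, *Lhx9*, *Pou4f1*, *Phox2a*, *Ebf1*, *Ebf2* and *Ebf3*. They were chosen by gene name from the annotation of the array, with all of their probes, and make up 9 of the 37074 gene names and 19 of the 56605 probes on it. RNA from the brain of homozygous luxoid mouse embryos (*Plzf* lu/lu) was compared with RNA from wild type C57BL/6 embryos, both at E10.5 (E, embryonic day), on 2 Agilent arrays that are labeled as biological replicates. The luxoid allele arose spontaneously and carries a point mutation in the first coding exon of *Plzf* (*Zbtb16*), which leaves a severely truncated protein, and no group received a treatment. The tissue is the forebrain and midbrain according to the methods and brain according to the labels, and the number of embryos behind each sample was not given in the sources used here. On each array the wild type sample was labeled with Cy3 and the *Plzf* lu/lu sample with Cy5, so dye and genotype cannot be told apart, and each array yields 1 ratio per probe.

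In the neural tube, dividing progenitors express proneural factors of the basic helix-loop-helix (bHLH) class, and the cells that leave the ventricular zone then turn on homeobox and helix-loop-helix factors that fix the type of neuron they become. LIM homeodomain proteins (Isl1, Lhx1, Lhx5, Lhx9) act in complexes with the cofactor Ldb1, which Lmo proteins compete for. The Ebf proteins (early B cell factors) promote the outward migration and differentiation of young neurons, Pou4f1 (Brn3a) marks sensory neurons and neurons of the midbrain tectum and habenula, and Phox2a is required for the oculomotor and trochlear nuclei and for noradrenergic neurons. At E10.5 neurogenesis in the forebrain and midbrain has only begun, so the neurons that carry these factors are among the first. RNA of the whole tissue does not show whether a signal came from these neurons or from other cells.

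The signals come from 60-base oligonucleotide probes. Bases 1 to 30 of the brightest probe of each gene are shown because the G and C content of a probe, in capitals, affects how strongly cRNA binds to it, and because a trend of the ratio on this content was removed in one of the alternatives. G and C made up between 31.7% and 55.0% of the bases over the 19 probes, with a median of 40.0% over the 9 brightest probes and 43.3% over the brightest probes of all genes well above background. Each position covers the whole probe and is taken from the annotation in the deposited files (build mm9).
Isl1, chr13:117088774-117088833, minus strand: CCCCCaaaGatGtGtataGttattGGttaa
Lhx1, chr11:84333052-84333111, minus strand: aGCCaGCtaCGGGaaCCatttGtCtCaCCC
Lhx5, chr5:120891144-120891203, plus strand: aCaGtattataCttttttGGaaGtCGGaCG
Lhx9, chr1:140721909-140721968, minus strand: aCaaGGataaaGatGCaGGCatCaGCtCtG
Pou4f1, chr14:104863312-104863371, minus strand: GaGaaaGaaaGaGaGaGaGaGaGaaatGtG
Phox2a, chr7:108971127-108971186, plus strand: GtCGGGGaaCGGaaCaaaatGGttttCCtt
Ebf1, chr11:44820424-44820483, plus strand: tGGatGCCttaaCaatGCaaatCatatCCa
Ebf2, chr14:68048145-68048204, plus strand: ttGGttGtGtttCttGGaCtCttaaGaCtC
Ebf3, chr7:144385490-144385549, minus strand: aCCGaGaGCttCaCtaaatGGtaGattttG
The longest stretch shared by probes of different genes among the 19 was 9 bases, between *Isl1* and *Ebf2*, and probes of 1 gene shared at most 8 bases. The position of each probe relative to exons and untranslated regions was not analysed here.

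Every value is a processed signal in arbitrary units, after background subtraction and dye normalization within the array by the authors, or the log2 ratio of the *Plzf* lu/lu signal to the wild type signal on the same array. Signals of different probes served to choose the brightest probe of a gene or marker of a list and to find genes in the signal range of the 9. They were also summed over some lists, where the brightest genes weigh most. No level was compared between genes. The brightest probes of all 9 genes were well above background in all 4 channels, but only *Lhx5*, *Pou4f1* and *Ebf3* passed the filter taken from the methods, a signal above 200 and a signal-to-noise ratio of at least 5 in every channel, which 10600 genes passed. The genes that passed were tested with limma, with Benjamini-Hochberg adjustment over those 10600 genes, and the other 6 with the same test over the 23281 genes that were well above background in every channel. The mutated gene *Zbtb16* had a signal of 433.2 in wild type and 171.8 in *Plzf* lu/lu on array 1, and of 546.4 and 210.9 on array 2. On the log2 scale its ratio was -1.33 and -1.37, so the mutated gene was lower in the *Plzf* lu/lu channel of both arrays.

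No gene of the 9 was more than 1.3-fold higher or lower in *Plzf* lu/lu on both arrays. Among all genes that passed the filter, 2.58% were higher and 0.736% lower by this rule, and among the genes well above background these shares were 2.52% and 2.07%. In limma with Benjamini-Hochberg adjustment 0 of the 3 tested genes had an adjusted p under 0.05, against 2 at an unadjusted p under 0.05, and over all 10600 genes 0.0283% and 27.8% did. Among the genes well above background, 0 of the 9 had an adjusted p under 0.05 and 1 an unadjusted p under 0.05, beside 0.0% and 17.0% of all. The 2 arrays gave different pictures. On array 1, 7 of the 9 genes lay beyond 1.3-fold, with *Isl1* and *Lhx5* higher and *Lhx1*, *Lhx9*, *Pou4f1*, *Ebf1* and *Ebf2* lower. On array 2 only *Ebf1* and *Ebf3* did, both higher. Of all genes that passed the filter on array 1 alone, 881 of 10788 were beyond 1.3-fold higher and 619 lower. On array 2 alone, 481 of 10797 were higher and 215 lower. The 9 genes were counted without that filter, so the sets are not alike. RNA of the whole tissue was measured, so fewer cells of a type and less RNA per cell cannot be told apart.

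**Figure D1:**
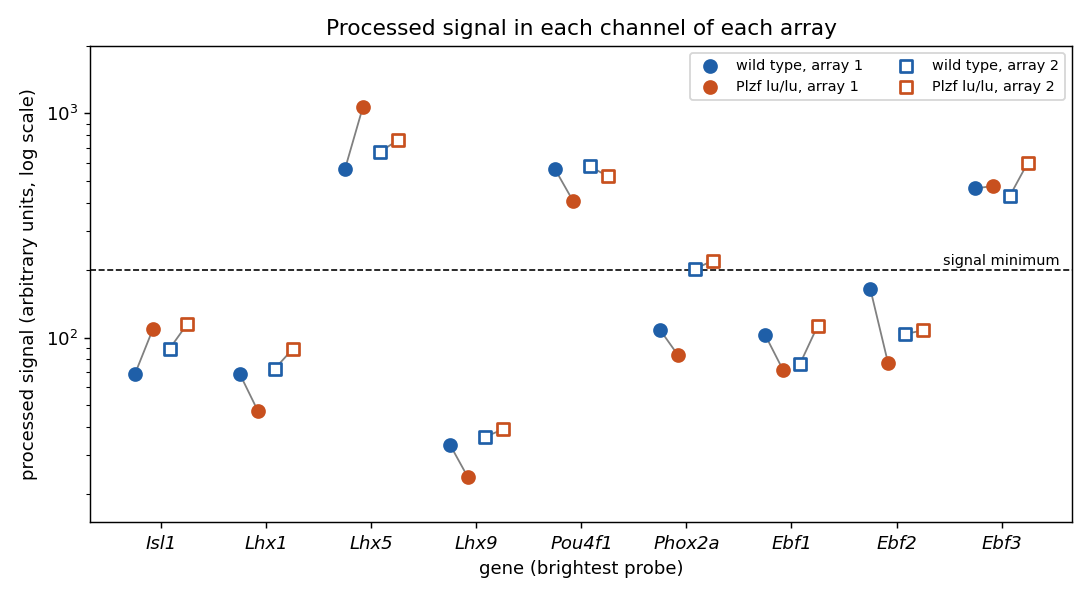
Processed signal (arbitrary units, log scale) of the brightest probe of each gene in wild type and *Plzf* lu/lu, with filled circles for array 1 and open squares for array 2, lines joining the samples of 1 array and a dashed line at the signal minimum of 200. *Lhx5*, *Pou4f1* and *Ebf3* lie above the minimum in every channel, and in 5 genes the *Plzf* lu/lu point lies below wild type on array 1 and above it on array 2.

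Among the LIM homeobox genes, *Isl1* and *Lhx5* were the ones with a ratio above 1 on both arrays. *Isl1* is required for motor, sensory and ventral forebrain neurons. Its signal was 68.8 in wild type and 108.8 in *Plzf* lu/lu on array 1, and 89.2 and 115.4 on array 2. On each array the *Plzf* lu/lu value lay above the wild type value. The ratios were 1.58-fold and 1.29-fold, the latter just under the threshold of 1.3. The mean log2 ratio was 0.52 (SD 0.21, n = 2 arrays). Over the genes well above background, limma gave a 95% interval of 0.19 to 0.84. The unadjusted p from limma was 0.0116 and the adjusted p 0.252. A second *Isl1* probe, at chr13:117099604-117099663, gave log2 ratios of 0.36 and 0.27, so all 4 measurements of *Isl1* were above 0.

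*Lhx5*, a factor of the hypothalamus, the cortical hem and early Cajal-Retzius cells, had the largest ratio of the 9 genes on array 1. Its signal was 566.1 in wild type and 1067.9 in *Plzf* lu/lu on array 1, and 672.2 and 758.4 on array 2. The difference was 1.89-fold on the first array and 1.13-fold on the second. The mean log2 ratio was 0.54 (SD 0.52, n = 2 arrays), with a 95% interval of 0.11 to 0.98, and limma gave an unadjusted p of 0.0216 and an adjusted p of 0.122. That fit was over the genes that passed the filter. Over the genes well above background, the interval of *Lhx5* was -0.04 to 1.13 and the adjusted p from limma 0.308. The wild type samples differed from each other by 0.25 and the *Plzf* lu/lu samples by -0.49 on the log2 scale (array 2 over array 1), so the larger part of the disagreement lay in the *Plzf* lu/lu samples. The median of these differences over all genes well above background was 0.02 in wild type and 0.01 in *Plzf* lu/lu.

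*Lhx1*, the close relative of *Lhx5*, and *Lhx9*, which marks postmitotic neurons of the pretectum and thalamus, had ratios below 1 on array 1 and above 1 on array 2. The signal of *Lhx1* was 68.5 in wild type and 47.1 in *Plzf* lu/lu on array 1, and 72.5 and 88.7 on array 2. The wild type values lay close together, and the *Plzf* lu/lu values lay on either side of them. Its log2 ratios were -0.54 and 0.29 (mean -0.12, SD 0.59), and limma gave an interval of -0.77 to 0.52 and an adjusted p of 0.791. The other *Lhx1* probes gave -0.28 and -0.66 on array 1 and 0.50 and 0.19 on array 2, which repeats the change of sign on probes that do not overlap. *Lhx9* had signals of 33.2 in wild type and 23.8 in *Plzf* lu/lu on array 1 and of 36.0 and 38.9 on array 2. Here too only the *Plzf* lu/lu value of array 1 stood below the others. The log2 ratios of *Lhx9* were -0.48 and 0.11 (mean -0.18, SD 0.42), with an adjusted p of 0.601 from limma. Its second probe gave -0.70 and 0.10, and the dimmest probe, which was well above background in wild type on 1 of the 2 arrays, gave -0.73 and 0.37.

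*Pou4f1* was the 1 gene of the 9 whose brightest probe was lower on both arrays. Its signal was 562.4 in wild type and 407.2 in *Plzf* lu/lu on array 1, and 580.6 and 524.9 on array 2. Only the ratio of array 1, 0.724, was beyond 1.3-fold, with 0.904 on array 2. The mean log2 ratio was -0.31 (SD 0.23, n = 2 arrays), with a 95% interval of -0.56 to -0.06, and limma gave an unadjusted p of 0.0245 and an adjusted p of 0.13. Over the genes well above background, the interval of *Pou4f1* was -0.64 to 0.03 and the adjusted p from limma 0.313. A second probe, at chr14:104864405-104864464, did not repeat the direction on array 2, with log2 ratios of -0.49 and 0.24. The dimmest of the 3 probes was not well above background in wild type on either array, and no ratio is given for it. When the ratios of all 3 probes were averaged, the dimmest included, the mean for *Pou4f1* became 0.28, and centring of each array on all of its spots after normexp background correction gave 0.20.

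*Phox2a* differed more between the arrays than between the genotypes. Its signal was 108.0 in wild type and 83.4 in *Plzf* lu/lu on array 1, and 202.1 and 220.6 on array 2. Both samples of array 2 stood well above both samples of array 1, by 0.90 in wild type and 1.40 in *Plzf* lu/lu on the log2 scale. The log2 ratios of the genotypes were -0.37 and 0.13 (mean -0.12, SD 0.35), and limma gave an interval of -0.56 to 0.31 and an adjusted p of 0.691. *Phox2a* is also expressed in the hindbrain. Of the 9 hindbrain genes listed, 6 were not well above background in every channel, and the summed signal was 414.5 and 362.8 in wild type and 296.2 and 278.0 in *Plzf* lu/lu on arrays 1 and 2. Their part in the values of *Phox2a* was not tested.

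*Ebf1* and *Ebf2* had the largest SD of the 9 genes. For *Ebf1* the signal was 102.5 in wild type and 71.6 in *Plzf* lu/lu on array 1, and 76.2 and 113.0 on array 2. The lowest and the highest of the 4 values were both *Plzf* lu/lu samples. With log2 ratios of -0.52 and 0.57 (mean 0.03, SD 0.77), *Ebf1* was the 1 gene beyond 1.3-fold in opposite directions on the arrays, as were 0.898% of all genes well above background, and limma gave an interval of -0.79 to 0.84 and an adjusted p of 0.971. The other *Ebf1* probes gave -0.97 and -1.23 on array 1 and 0.22 and -0.08 on array 2. The 3 probes disagreed on the size of each ratio, yet the step from array 1 to array 2 was 1.09, 1.18 and 1.16 on the log2 scale.

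*Ebf2*, measured by 1 probe, had signals of 165.0 in wild type and 76.7 in *Plzf* lu/lu on array 1 and of 103.7 and 107.6 on array 2. Wild type on array 1 was the highest and *Plzf* lu/lu on array 1 the lowest of the 4 values, while the samples of array 2 were alike. The log2 ratio was -1.11 on array 1, the lowest of the brightest probes, and 0.05 on array 2 (mean -0.53, SD 0.82), and limma gave an interval of -1.39 to 0.34 and an adjusted p of 0.431. *Ebf3* had signals of 462.4 and 474.7 on array 1 and of 430.1 and 603.2 on array 2. Only its *Plzf* lu/lu value on array 2 stood apart. The log2 ratios of *Ebf3* were 0.04 and 0.49 (mean 0.26, SD 0.32), with a 95% interval of -0.04 to 0.56, an unadjusted p of 0.0747 and an adjusted p of 0.22 from limma. A second *Ebf3* probe gave -0.07 and 0.35.

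**Figure D2:**
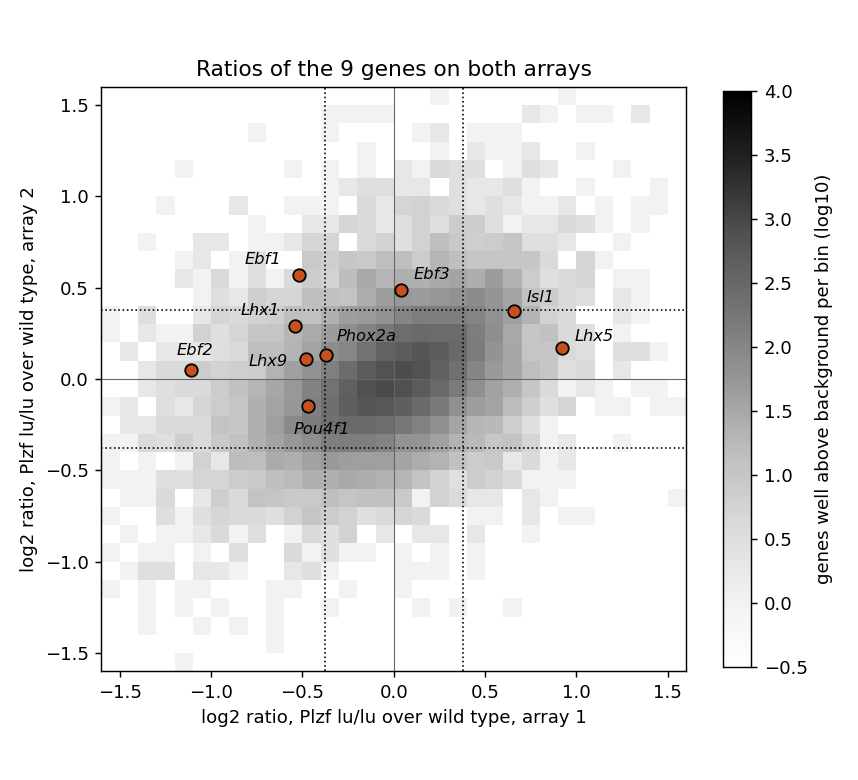
Log2 ratio of *Plzf* lu/lu over wild type on array 1 (horizontal) and array 2 (vertical) for the brightest probe of the 9 genes (orange), over the density of the 23281 genes well above background (grey, log10 of the genes per bin), with dotted lines at 1.3-fold. No orange point lies in the upper right or lower left corner beyond both lines, and 5 lie in the upper left quadrant.

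Seen together, the genes differed between the arrays in 1 direction more often than genes at large. Of the 9, 5 were lower on array 1 and higher on array 2 (55.6%), as were 16.3% of the 23281 genes well above background and 16.3% of the 12605 genes within the range of mean signal of the 9. The ratio was higher on array 2 than on array 1 in 7 of the 9 (77.8%), the exceptions being *Isl1* and *Lhx5*, against 49.5% of all genes well above background. Over the 9 genes the median log2 ratio came to -0.47 on array 1, 0.17 on array 2 and -0.12 in the mean of both, where the median of all genes well above background was 0.0 in each case. The difference between the arrays had an SD of 0.62 over the 9 genes and of 0.33 over all. These are counts and medians of a short list with no test, and the sign of the median differed between the arrays and with the scaling, since the mean of both gave 0.23 when the arrays were centred on all spots.

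**Figure D3:**
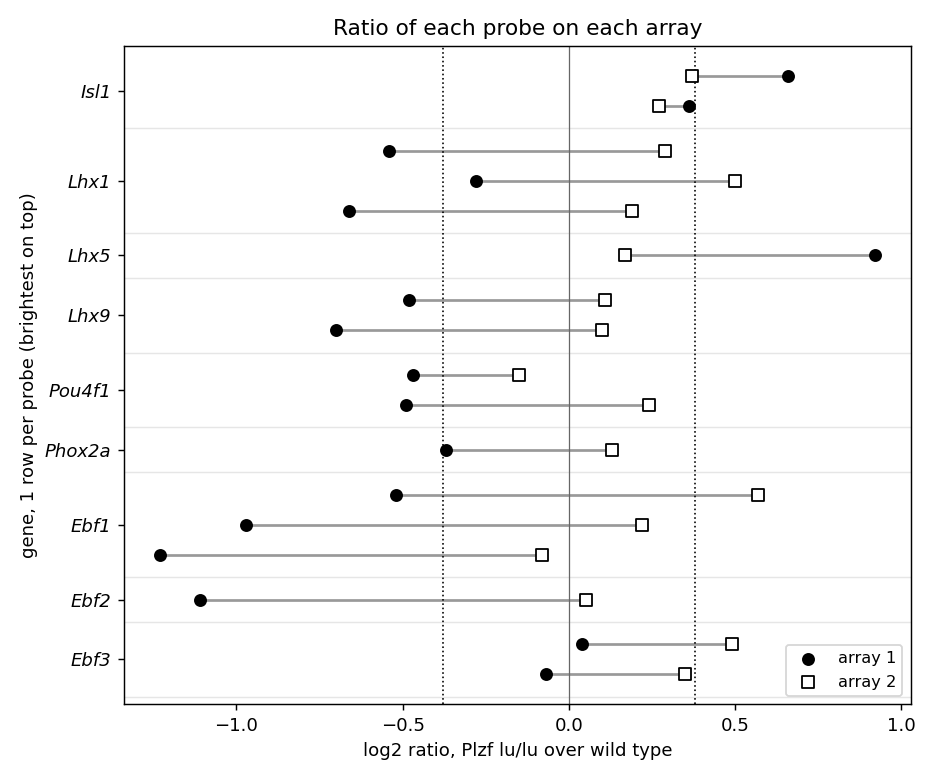
Log2 ratio of *Plzf* lu/lu over wild type on array 1 (filled circles) and array 2 (open squares) for each of the 17 probes well above background in every channel, 1 row per probe, with dotted lines at 1.3-fold. In 14 of the rows the square lies to the right of the circle, and the probes of 1 gene have steps of the same direction.

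Probes of 1 gene gave steps between the arrays of the same sign. Of the 17 probes well above background in every channel, 11 were lower on array 1 and higher on array 2, 4 were higher on both and 2 lower on both. For *Lhx1* the step from array 1 to array 2 was 0.83, 0.78 and 0.84 on the log2 scale in 3 probes, and for *Ebf3* 0.45 and 0.42. The steps of *Ebf1*, given above, were as even, and those of the remaining genes less so, with -0.29 and -0.08 for *Isl1*, 0.60 and 0.80 for *Lhx9* and 0.32 and 0.74 for *Pou4f1*. Probes of 1 gene measure the same 4 RNA samples and are not replicates. The step was thus measured again at other spots of the same arrays, from the same labeled RNA. The error that the image software assigned to the processed signal of the brightest probes was between 10.0% and 13.3%.

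Genes related to the 9 factors by family or role were measured on the same arrays. Of 12 relatives from the same families, 4 passed the filter, and 0 of these 4 were beyond 1.3-fold on both arrays in either direction. Among the 10 well above background 1 was beyond 1.3-fold higher on both arrays and 0 lower, beside 2.52% and 2.07% of all. The higher gene was *Pou4f2*, a gene of retinal ganglion cells, with log2 ratios of 0.62 and 0.49 and an adjusted p of 0.251 from limma. Its signals were dim, at 13.4 in wild type and 20.6 in *Plzf* lu/lu on array 1, and 23.3 and 32.8 on array 2. The median log2 ratio of the 4 that passed the filter was -0.14 on array 1 and 0.12 on array 2. *Lhx2*, the LIM homeobox gene of cortical and eye progenitors and the brightest of them, had -0.18 and 0.86. *Isl2*, the partner of *Isl1* in motor neurons, had 0.39 and 0.31 at signals between 103.6 and 138.6, with an adjusted p of 0.259 from limma among the genes well above background.

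Of 11 cofactors of LIM homeodomain and Ebf proteins, 9 passed the filter, 2 were beyond 1.3-fold higher on both arrays and 0 lower, beside 2.58% and 0.736% of all genes that passed, and limma called 0. The signal of *Lmo1* was 1330.2 in wild type and 1909.1 in *Plzf* lu/lu on array 1, and 1197.6 and 2309.3 on array 2, with log2 ratios of 0.52 and 0.95 and an adjusted p of 0.052 from limma. *Lmo4* had signals of 2285.9 and 3830.6 on array 1 and of 2670.9 and 3532.2 on array 2, with log2 ratios of 0.74 and 0.40 and an adjusted p of 0.0583 from limma. In both genes the *Plzf* lu/lu value lay above the wild type value on each array. Both encode LIM-only proteins that bind Ldb1 without binding DNA. *Ldb1* itself had log2 ratios of -0.34 and -0.08, and *Zfp423*, which binds Ebf proteins, -0.11 and -0.12.

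The proneural and early neuronal bHLH list held 16 genes, among them *Insm1*, *Dll1* and *Dll3*, which are not of the bHLH class. Of the 16, 4 passed the filter with 0 beyond 1.3-fold on both arrays. Among the 11 that were well above background in every channel, a condition that a gene lost in 1 genotype cannot meet, the ratio was higher on array 2 in all 11. Among these 11, 3 were beyond 1.3-fold higher on both arrays and 0 lower, beside 2.52% and 2.07% of all genes well above background. *Neurog2* and *Neurod1*, which were named after their values were seen, were among the 3. The signal of *Neurod1*, a factor of neurons that have just left the cell cycle, was 58.7 in wild type and 154.4 in *Plzf* lu/lu on array 1 and 77.1 and 213.3 on array 2, with log2 ratios of 1.40 and 1.47. *Neurog2* had 0.40 and 1.16, and the adjusted p from limma was 0.251 for *Neurod1* and 0.263 for *Neurog2*. In both genes the *Plzf* lu/lu value lay above the wild type value on each array. Of the 5 genes not well above background in every channel, some went the other way. *Atoh1* had signals of 91.6 and 83.9 in wild type and of 2.84 and 3.92 in *Plzf* lu/lu, with log2 ratios of -5.01 and -4.42. *Neurod4*, at dim signals, had -1.49 and -1.08, while *Neurod2*, also dim, had 0.56 and 0.86.

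Of 33 other transcription factors of postmitotic neurons, 7 passed the filter with 0 beyond 1.3-fold on both arrays, and their median log2 ratio was 0.23 on array 1 and 0.09 on array 2. The brightest, *Sox11*, had 0.26 and 0.32. Among the 27 well above background, 3 were beyond 1.3-fold higher on both arrays, beside 2.52% of all, and the ratio was higher on array 2 in 20. Structural genes of neurons, such as those for tubulin, neurofilaments and Elav proteins, had higher ratios on array 2 than on array 1 in all that passed the filter. Of the 22 listed, 18 passed the filter, 2 were beyond 1.3-fold higher on both arrays (*Elavl4* with 0.40 and 0.75, *Stmn4* with 0.53 and 0.93) and 0 lower, beside the same shares of 2.58% and 0.736%. The median of the 18 was 0.14 on array 1 and 0.60 on array 2, and the ratio was higher on array 2 in each of the 18, against 46.4% of all genes that passed the filter. *Dcc*, the netrin receptor and the brightest of them, had -0.63 and -0.03.

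**Figure D4:**
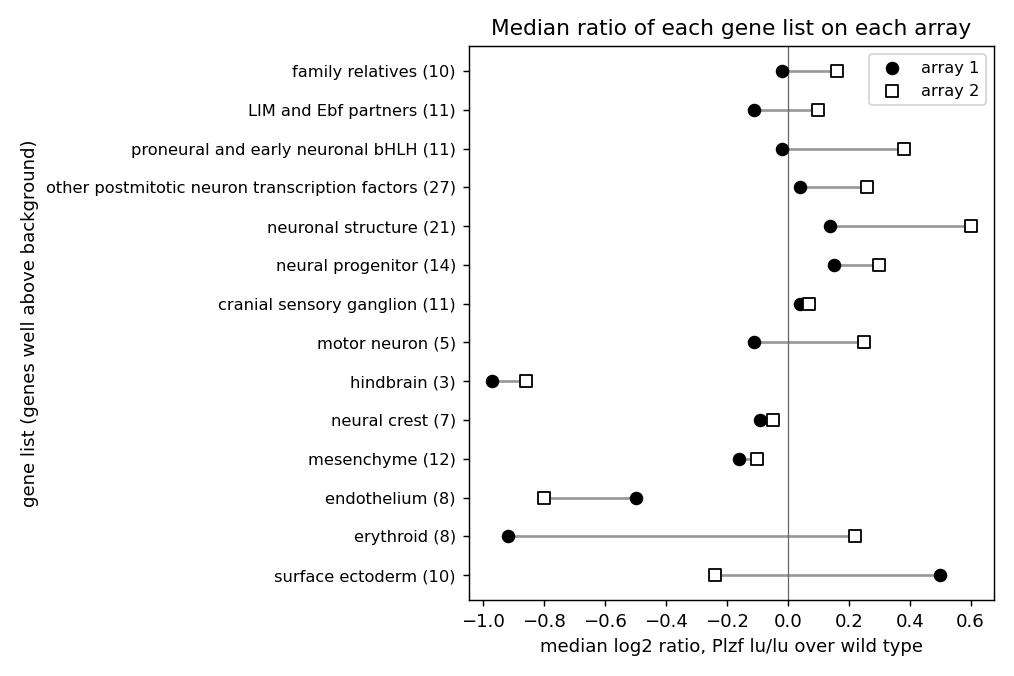
Median log2 ratio of *Plzf* lu/lu over wild type on array 1 (filled circles) and array 2 (open squares) in each of 14 gene lists, over the genes well above background, whose number stands in parentheses. The neuronal structure list moves from 0.14 to 0.60, the erythroid list from -0.92 to 0.22 and the surface ectoderm list from 0.50 to -0.24.

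Markers of other cells that the dissected tissue could hold also differed between the arrays. The 8 erythroid genes, all well above background, had a higher ratio on array 2 in 8 of 8, with medians of -0.92 and 0.22. Their summed signal was 472414.9 in wild type and 252908.9 in *Plzf* lu/lu on array 1, and 195595.7 and 238991.9 on array 2. The globin gene *Hbb-y* had log2 ratios of -0.80 and 0.52. Of the 10 surface ectoderm genes 3 had a higher ratio on array 2, and their medians were 0.50 and -0.24, with *Krt18* at 0.69 and -0.34. Neural progenitor genes, of which 11 of 14 passed the filter, had medians of 0.14 and 0.41, with *Sox2* (0.44 and 0.47) and *Cdh2* (0.60 and 0.44) beyond 1.3-fold higher on both arrays, as 2.58% of all genes were, and *Vim* at 0.10 and 0.18. The part of these cells in the ratios of the 9 genes was not tested.

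Several of the 9 genes are also active outside the brain. Of the markers of cranial sensory ganglia, where *Isl1* and *Pou4f1* are expressed, 6 of the 14 on the array passed the filter, with medians of 0.25 and 0.05 on arrays 1 and 2, and *Eya1* was the 1 gene beyond 1.3-fold, at 0.55 and 0.58. Of 8 motor neuron markers 0 passed the filter and 5 were well above background, and their summed signal was 332.6 and 368.5 in wild type and 325.9 and 388.8 in *Plzf* lu/lu. The summed signal of wild type and *Plzf* lu/lu thus overlapped. Of the neural crest markers 2 of 8 passed, and the brightest, *Tfap2b*, had 0.99 and 0.22. *Sox10* went the other way with -0.39 and -0.65, and the median of the 7 well above background was -0.09 and -0.05. The 10 mesenchyme genes that passed had a median log2 ratio of -0.09 in the mean of both arrays, with *Col1a2* at 0.15 and 0.10. Of 8 endothelial genes 2 passed, with *Emcn* at -0.63 and -0.68 and *Egfl7* at -0.16 and -0.41. Over the genes that passed, limma gave an adjusted p of 0.051 for *Emcn* and 0.122 for *Egfl7*. All 8 endothelial genes were well above background, with medians of -0.50 and -0.80. Of these 8, 5 were beyond 1.3-fold lower on both arrays (*Kdr*, *Tek*, *Tie1*, *Emcn* and *Esam*), beside 2.07% of all genes well above background. Over the genes well above background, the adjusted p from limma lay between 0.251 and 0.255 for these 5. In limma with Benjamini-Hochberg adjustment no gene of the 14 lists had an adjusted p under 0.05. An unadjusted p under 0.05 from limma was found for 11 of the 18 neuronal structure genes that passed the filter, beside 27.8% of all. Among other genes that passed, it was found for 5 of 9 cofactors, 5 of 11 progenitor genes and 0 of 4 family relatives. In the proneural and early neuronal bHLH list it was found for 0 of 4, and among other postmitotic factors for 2 of 7. Lists of other cells held such genes too, with 2 of 2 neural crest, 2 of 2 endothelial and 4 of 10 mesenchyme genes. For cranial sensory ganglia the count was 1 of 6, for erythroid genes 1 of 7 and for surface ectoderm 0 of 7.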

How the data were processed

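RNA of 2 wild type and 2 *Plzf* lu/lu brain samples was measured on 2 two-colour arrays on 1 slide. Per the file headers, the authors used Feature Extraction 10.7.3.1 to subtract the background and to normalize the dyes of each array. Its output was deposited, with the intensity of each spot and of the background, the processed intensity and its error, and a log10 ratio (Cy5 over Cy3). The same ratio was also deposited on the log2 scale, within 0.005. Groups, dyes and replicates came from the labels, and the tissue, filter and fold threshold from the methods.

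Without control and outlier spots, the log2 signals of repeated spots were averaged per probe, and the brightest probe stood for a gene. An intercept was fitted to the log2 ratios of each gene in limma 3.58.1 (R 4.3.3) with eBayes and Benjamini-Hochberg adjustment, and tables were made in Python 3.11.15. Each gene has 1 residual degree of freedom, so the test rests on variance pooled over genes, and an exact sign-flip test of 2 arrays cannot go below p = 0.5. The fit was tested on simulated data. The number of arrays limits the precision.

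The 9 genes and all lists were chosen with earlier results of these data known. Named are all 9 genes with every probe, up to 4 genes per list and direction beyond 1.3-fold on both arrays, the brightest gene of each list of other cells, and *Zbtb16*. Genes beyond this rule are said to be so or are given beside their list as examples. Some genes of the lists are not reported here. *Lmo1*, *Stmn4*, *Sox2* and *Emcn* belong to the genes the study selected from these arrays. Each array pairs its samples, so the ratio is the block. Alternatives covered background correction, centring, filter, probe choice, pairing, variance model, fold threshold, probe GC content and each array alone.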

Additional observations from a re-analysis of the deposited data

How the results depend on the processing

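The counts of genes beyond 1.3-fold on both arrays stayed at 0 in either direction, and the count by limma at 0, under normexp with loess or with centring on the passing genes, the deposited log2 table, other filters, all probes of a gene averaged or taken singly, removal of the GC trend, eBayes with trend for limma and, for the folds, a threshold of 1.5. Without the pairing by array (no replicate block) limma also called 0 of the 9 genes. Normexp with median centring over all spots shifted the genes that passed the filter by a median of 0.54 (log2) and gave 2 genes higher, *Lhx5* and *Ebf3*, and 2 limma calls, with adjusted p of 4.93e-12 and 5.87e-07, against 0.122 and 0.22 before. That setting called 6620 of all 10600 genes higher on both arrays and 9612 by limma. The adjusted p from limma lay between 0.0664 and 0.602 for *Pou4f1* over its alternatives. Its mean ratio reversed to 0.28 with the mean over probes, which takes in the probe not above background (adjusted p 0.586 from limma), and to 0.2 with the centring on all spots (adjusted p 0.156). Of the 9 genes, 3 passed the filter on array 1 alone, of which 1 was higher and 1 lower. On array 2 alone 4 passed, of which 1 was higher and 0 lower. Without the filter 7 of the 9 lay beyond 1.3-fold on array 1 and 2 on array 2. Over all genes that passed the filter, array 1 alone gave 881 higher and 619 lower of 10788. Array 2 alone gave 481 higher and 215 lower of 10797. Both calls of array 1, *Lhx5* and *Pou4f1*, and the call of array 2, *Ebf3*, rest on that array. The median ratio of the 9 genes lay between -0.47 and 0.17 with 1 array alone. Centring on the passing genes after normexp gave means of 0.06 for *Isl1*, -0.47 for *Lhx1*, -0.59 for *Lhx9* and -0.24 for *Ebf1*, and the median of the 9 to -0.32. The mean of *Ebf1* was -0.33 over its probes, and the centring on all spots gave 0.23 for *Phox2a* and 0.08 for *Lhx1*. The ratio was higher on array 2 in 7 of 9 genes under every setting that used both arrays and 1 value per gene, while the number lower on array 1 and higher on array 2 ranged from 3 to 7. The signals of 6 of the 9 genes lay under 200 in at least 1 channel, which limits what their ratios can show.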
